A study of Homo sapiens with 12 samples.

Results

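Expression of DKK1 and 9 other genes of the Wnt pathway (DKK2, DKK3, FZD3, FZD5, LRP5, LRP6, AXIN2, LEF1 and CTNNB1) was followed across 12 RNA-seq libraries of Kelly cells. Kelly is an established human neuroblastoma line with amplified MYCN and adrenergic character. The members were found by gene name among 60660 gene identifiers. The set was chosen by looking at abundance in these same libraries, so the members' own values are a description and carry no test. Of the 10 members, 9 passed the filter on low values, a TPM (transcript abundance corrected for gene length and scaled to the library) of at least 1 in at least 2 libraries; DKK2 did not. Across the series 16842 genes passed.

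Every library came from a Kelly derivative with a doxycycline-inducible short hairpin RNA (shRNA). The shRCOR1 and shRCOR2 lines carried an shRNA against RCOR1 or RCOR2, which encode scaffold proteins of histone demethylase and deacetylase complexes, and the shCTRL line carried a non-targeting shRNA. Cells were untreated or received 2 µg/mL doxycycline (induced), which gives 6 groups of 2 libraries. The titles, the time label and the design text put induction at 72 h, whereas the treatment protocol names 24 or 48 h. The untreated cells of each line carried the same uninduced construct and no doxycycline. How many clones or shRNA sequences each line holds, and whether replicates were separate cultures, is not stated, so the errors and p-values below measure the spread between these libraries only, which may be technical. The main fit leaves out the replicate number, although same-numbered libraries deviated alike, so this spread includes shifts shared by replicate number. Values given with the block come from a fit that has the replicate number as a further term.

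Canonical Wnt signalling begins when a Wnt ligand joins a Frizzled receptor to the co-receptor LRP5 or LRP6. The destruction complex, built on AXIN proteins, then stops degrading β-catenin, the product of CTNNB1, which enters the nucleus and acts with LEF1 and related TCF factors on target genes. DKK1 is a secreted inhibitor that binds LRP5 and LRP6 and keeps them from the ligand, and it is itself a known target of the pathway in several tissues. In neural crest, from which neuroblastoma derives, Wnt signals act in induction and migration of the cells.

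The DKK1 gene lies on the plus strand of chromosome 10 (chr10:52314281-52318042, GRCh38), and FZD5 on the minus strand of chromosome 2 (chr2:207762598-207769906). These members had the largest differences between induced and untreated libraries, and their promoters are shown for that reason. RefSeq (GRCh38.p14) promoter windows of 300 bases, from 250 before to 50 after the start site, were matched for 5 of the 10 members (DKK1, FZD5, LRP5, LEF1 and CTNNB1). The DKK1 window is chr10:52314031-52314330 on the plus strand and the FZD5 window chr2:207769857-207770156 on the minus strand. Capitals mark matches to the motifs named next.
DKK1: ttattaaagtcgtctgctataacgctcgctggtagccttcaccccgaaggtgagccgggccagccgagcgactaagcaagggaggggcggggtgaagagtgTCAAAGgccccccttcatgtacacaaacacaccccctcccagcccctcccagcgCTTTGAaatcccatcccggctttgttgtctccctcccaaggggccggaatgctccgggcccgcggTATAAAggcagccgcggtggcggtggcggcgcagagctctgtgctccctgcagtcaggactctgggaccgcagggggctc
FZD5: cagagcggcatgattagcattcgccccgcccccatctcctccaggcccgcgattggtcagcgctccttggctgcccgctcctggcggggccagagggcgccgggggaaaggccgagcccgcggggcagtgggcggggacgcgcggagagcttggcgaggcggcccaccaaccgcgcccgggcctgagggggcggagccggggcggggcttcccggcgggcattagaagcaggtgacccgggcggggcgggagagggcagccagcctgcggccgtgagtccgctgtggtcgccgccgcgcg

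The letters searched were the TATA box TATAAA on the given strand and, on both strands, the TCF/LEF core CTTTGA, the AP-1 site TGANTCA, the cyclic AMP element TGACGTCA and the E-box CACGTG. No match of one motif overlapped a match of another in the DKK1 window. That window held TATAAA with its first base at −30 from the start site, and CTTTGA at −95 on the gene's strand and at −149 on the other strand. It held no match to the remaining 3 motifs. TATAAA was present in 7.33% and CTTTGA in 12.9% of 35116 promoter windows of the same length. TGANTCA stood in 7.71%, TGACGTCA in 1.85% and CACGTG in 7.26% of them. The FZD5 window, with a GC content of 77.0% against 63.7% in the DKK1 window, held none of the 5 motifs. LRP5, LEF1 and CTNNB1 held none either. The motifs were picked after the DKK1 sequence had been seen, and a match of letters is a description of the sequence, not a bound site.

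DKK1 showed the largest difference of the set. In the untreated shRCOR1 line it stood at 29.1 and 33.1 TPM, and in the induced shRCOR1 line at 406 and 443 TPM. In the shRCOR2 line the untreated libraries held 34.4 and 27.7 TPM and the induced ones 159 and 134 TPM. In the shCTRL line the untreated libraries held 24.1 and 23.3 TPM and the induced ones 33.4 and 19.2 TPM. Both induced libraries of each knockdown line were thus above every untreated library and above both induced shCTRL libraries, while the shCTRL groups overlapped.

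**Figure D1:**
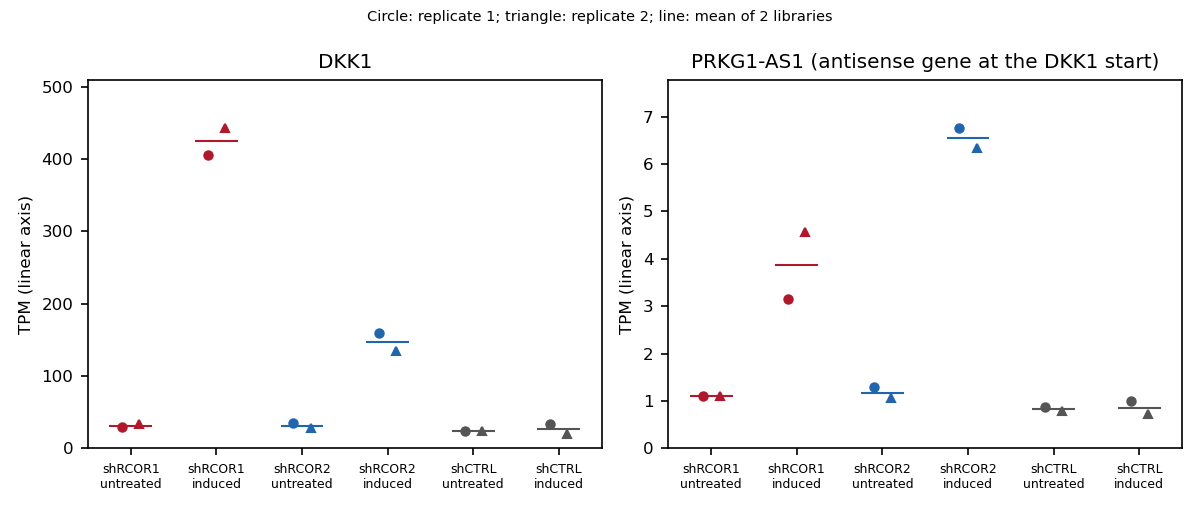
TPM of DKK1 (left) and of PRKG1-AS1, the antisense gene at its start (right), in each of the 12 libraries on linear axes; circles are replicate 1, triangles replicate 2 and lines the mean of 2 libraries. DKK1 is highest in the induced shRCOR1 libraries (406 and 443 TPM), and PRKG1-AS1 in the induced shRCOR2 libraries (6.76 and 6.34 TPM).

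As group means, DKK1 was at 425 ± 25.9 TPM in induced shRCOR1 and at 147 ± 17.6 TPM in induced shRCOR2 cells (SD, n = 2 each). Next came untreated shRCOR1 (31.1 ± 2.86 TPM), untreated shRCOR2 (31.0 ± 4.74 TPM), induced shCTRL (26.3 ± 10.0 TPM) and untreated shCTRL cells (23.7 ± 0.571 TPM). The induced knockdown groups stood apart from each other and from the rest, and each of the other 4 groups overlapped its neighbour in this order. The mean was 13.6-fold higher in induced than in untreated shRCOR1 cells, 4.73-fold higher in shRCOR2 cells and 1.11-fold higher in shCTRL cells.

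On the log2(TPM + 1) scale, which understates the change of weakly expressed genes, the DKK1 difference between induced and untreated cells was 3.73 ± 0.23 (SE; 95% interval 3.22 to 4.24) in shRCOR1. It was 2.21 ± 0.23 (1.69 to 2.72) in shRCOR2 and 0.09 ± 0.23 (−0.42 to 0.61) in shCTRL. Relative to the shCTRL change, the shRCOR1 change was larger by 3.64 ± 0.32 (2.91 to 4.36) and the shRCOR2 change by 2.12 ± 0.32 (1.39 to 2.84). The shRCOR2 change was below the shRCOR1 change by 1.52 ± 0.32, a difference of −1.52 (−2.25 to −0.79). The last 3 values share libraries with the first 3. Leaving out single libraries moved the shRCOR1 difference between 3.64 and 3.82 and the shRCOR2 difference between 2.06 and 2.36.

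Each targeted gene was lower in its own induced line, but RCOR2 was lower in both induced knockdown lines. RCOR1 was lower in induced than in untreated shRCOR1 cells (−0.71 ± 0.12, adjusted p = 0.0109), at 4.80 and 5.07 against 8.32 and 9.08 TPM; this call ended without any 1 of these 4 libraries and with them alone in the fit, and relative to shCTRL the change was −0.60 ± 0.17 (adjusted p = 0.158; called with the block, adjusted p = 0.0452). RCOR2 was lower in induced shRCOR2 cells (−1.42 ± 0.11, adjusted p = 0.000403), at 17.7 and 20.5 against 55.4 and 49.9 TPM. RCOR2 was also lower in induced shRCOR1 cells (−0.94 ± 0.11, adjusted p = 0.00278), at 26.0 and 26.3 against 51.4 and 50.5 TPM. That value ran from −1.01 to −0.92 over 12 alternatives, and the RCOR1 value in the same line from −0.81 to −0.62. Relative to shCTRL the RCOR2 change in shRCOR1 was −0.75 ± 0.16 (adjusted p = 0.069, and called with the block, adjusted p = 0.0163). Adrenergic neuroblastoma markers identified the cells in every library: all 6 used here (PHOX2A, HAND2, GATA3, ISL1, TH and DBH) were at 1 TPM or more in all 12. Depth varied up to 2.14-fold between libraries, and mitochondrial genes took 13.3% to 21.4% of TPM.

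The summed adrenergic markers ran from 3000.3 to 3169.8 TPM in untreated and from 2340 to 2601 TPM in induced shRCOR1 cells. They ran from 2607 to 2999 and from 2138 to 2628 TPM in untreated and induced shRCOR2 cells, and from 2755 to 3022 and from 2616 to 2789 TPM in shCTRL. Single markers did not all go the way of the sum. GATA3 was lower in induced shRCOR1 (−0.70 ± 0.11, adjusted p = 0.00875) and higher in induced shRCOR2 cells (0.46 ± 0.11, adjusted p = 0.0312). ISL1 was lower in shRCOR1 (−1.30 ± 0.18, adjusted p = 0.00428), where the PHOX2A value was 0.56 ± 0.20 (adjusted p = 0.121). The HAND2, TH and DBH values were −0.46 ± 0.18, −0.41 ± 0.49 and −0.39 ± 0.18 in shRCOR1 (adjusted p = 0.161, 0.683 and 0.227). In shRCOR2 they were 0.13 ± 0.18, −1.26 ± 0.49 and −0.49 ± 0.18 (adjusted p = 0.695, 0.121 and 0.0998). In bulk RNA, fewer cells of a type and less RNA per cell cannot be told apart. The 3 leukocyte markers summed to at most 0.071 TPM, with PTPRC, CD3E and LST1 each below 0.1 TPM in all 12 libraries. Of 3 endothelial markers, PECAM1 and CDH5 were below 0.1 TPM throughout; the sum, which is then mostly VWF, ran from 0.705 to 0.846 TPM in untreated and from 1.51 to 2.59 TPM in induced shRCOR1 cells. It ran from 0.733 to 0.975 and from 0.934 to 1.12 TPM in untreated and induced shRCOR2 cells, and from 0.844 to 0.916 and from 0.707 to 0.746 TPM in shCTRL cells.

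Of 5 fibroblast markers, DCN was below 0.1 TPM throughout, and the sum ran from 8.82 to 28.8 TPM in untreated and from 26.5 to 66.9 TPM in induced shRCOR1 cells. In shRCOR2 cells it ran from 10.2 to 48.1 TPM untreated and from 12.7 to 19.5 TPM induced. The highest fibroblast sums were in shCTRL, from 18.1 to 123 TPM untreated and from 15.4 to 113 TPM induced. In all 6 groups the higher of the 2 sums was that of replicate 2. Of 4 Schwann cell markers, SOX10 was below 0.1 TPM throughout, and the sum was 1.55 to 9.66 TPM over all libraries. The part of these markers in the DKK1 result was not tested.

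An antisense gene at the DKK1 start also rose in both knockdown lines. PRKG1-AS1 lies on the minus strand (chr10:52230398-52314507) and overlaps the first 227 bases of DKK1. The genes thus start close together on opposite strands, and each runs across the start of the other. It was picked for description after its values had been seen. PRKG1-AS1 was at 1.11 and 1.10 TPM in untreated and at 3.16 and 4.56 TPM in induced shRCOR1 cells (1.19 ± 0.18, adjusted p = 0.00558). In shRCOR2 cells it was at 1.29 and 1.06 TPM untreated and at 6.76 and 6.34 TPM induced (1.80 ± 0.18, adjusted p = 0.000885). The shCTRL libraries held 0.715 to 0.993 TPM, with a change of 0.02 ± 0.18.

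The PRKG1-AS1 values were highest in induced shRCOR2 cells, where DKK1 was lower than in induced shRCOR1 cells. The shRCOR2 change exceeded the shCTRL change by 1.78 ± 0.25 (adjusted p = 0.0174). The corresponding shRCOR1 value was 1.17 ± 0.25 (adjusted p = 0.0676), called with the block (adjusted p = 0.0192), and the difference between the knockdown lines was 0.60 ± 0.25 (adjusted p = 0.164). The shRCOR1 call of PRKG1-AS1 ended without the untreated replicate 1 and with the line's libraries alone, and its shRCOR2 call held in all 12 alternatives. Its call relative to shCTRL ended without any 1 of the 4 shRCOR2 or the 2 untreated shCTRL libraries. Because the strand setting of the counting is not stated, reads from the shared 227 bases cannot be told apart. The protein-coding genes within 1 Mb were PRKG1 (at most 0.071 TPM), MBL2 (at most 0.188 TPM) and CSTF2T, a polyadenylation factor gene at 16.2 to 28.5 TPM. CSTF2T did not pass the test in any of the 6 contrasts, with −0.24 ± 0.17 in shRCOR1 (adjusted p = 0.463) and 0.23 ± 0.17 in shRCOR2 (adjusted p = 0.433).

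The other DKK genes did not share the DKK1 pattern in level. DKK2, a second secreted LRP ligand of the family, was at 0 to 0.058 TPM in all 12 libraries and was not tested. DKK3, a divergent family member that is not established as an LRP5 or LRP6 antagonist, was at 10.3 and 10.8 TPM in untreated and 9.86 and 12.6 TPM in induced shRCOR1 cells. In shRCOR2 cells DKK3 was at 10.1 and 11.4 TPM untreated and at 7.76 and 7.95 TPM induced, a difference of −0.40 ± 0.22 (95% interval −0.91 to 0.10). In shCTRL the untreated values of 8.08 and 12 TPM overlapped the induced values of 9.09 and 13.6 TPM. DKK3 shares 5681 bases with USP47 on the opposite strand, which was at 11.8 to 17.7 TPM, so its value may include reads of that gene.

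Among the receptors, FZD3 and FZD5 differed in opposite directions. FZD3, a Frizzled receptor known for its part in axon guidance, was at 3.86 and 3.87 TPM in untreated and 5.19 and 4.96 TPM in induced shRCOR1 cells (0.32 ± 0.13). In shRCOR2 cells FZD3 was at 4.19 and 3.93 TPM untreated and at 2.37 and 2.33 TPM induced (−0.59 ± 0.13). In shCTRL the untreated libraries held 3.88 and 3.70 TPM and the induced ones 3.77 and 4.57 TPM. Induced libraries were therefore above the untreated ones in shRCOR1, below them in shRCOR2 and overlapping in shCTRL. The shRCOR2 change lay below the shRCOR1 change by 0.91, a difference of −0.91 ± 0.19 (95% interval −1.34 to −0.49).

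FZD5, a Frizzled receptor of canonical signalling, showed the reverse order. It was at 6.03 and 5.59 TPM in untreated and 2.64 and 1.87 TPM in induced shRCOR1 cells (−1.08 ± 0.48). In shRCOR2 cells FZD5 was at 4.89 and 4.27 TPM untreated and at 9.19 and 24.3 TPM induced (1.53 ± 0.48). In shCTRL the untreated values of 6.98 and 3.81 TPM overlapped the induced values of 6.27 and 2.30 TPM. The 2 induced shRCOR2 libraries were both higher than every other library but differed 2.65-fold from each other. Without induced replicate 2 the shRCOR2 difference was 0.87, and without induced replicate 1 it was 2.19. The shRCOR2 change exceeded the shRCOR1 change by 2.60 ± 0.67 (95% interval 1.07 to 4.14).

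**Figure D2:**
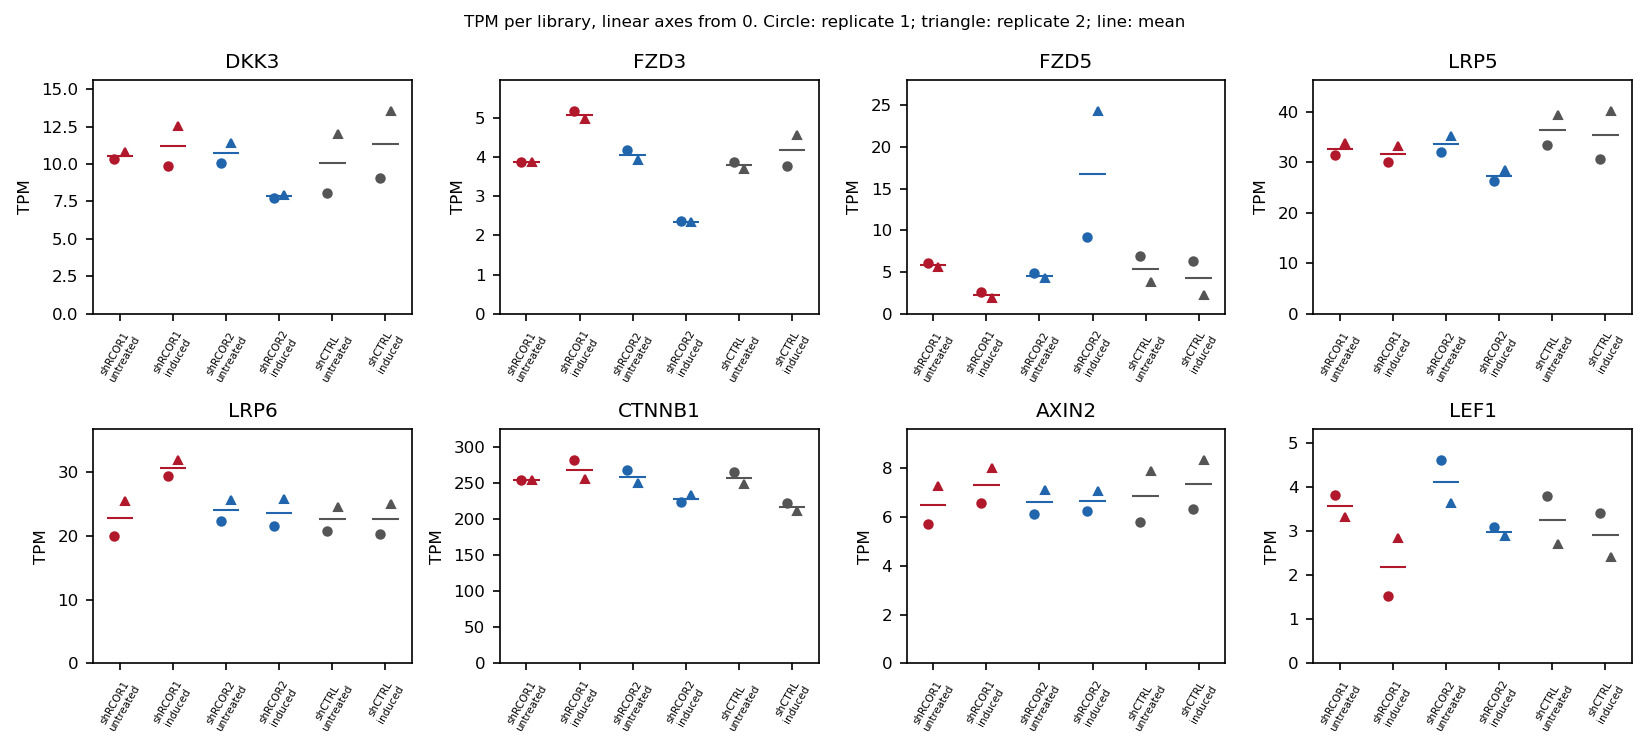
TPM per library of the 8 other tested members on linear axes that start at 0; circles are replicate 1, triangles replicate 2 and lines the mean of 2 libraries. FZD5 is highest in the induced shRCOR2 libraries (9.19 and 24.3 TPM) and FZD3 lowest there (2.37 and 2.33 TPM), while AXIN2 stays between 5.69 and 8.34 TPM.

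The co-receptors bound by DKK1 varied less. LRP6 was at 20.1 and 25.5 TPM in untreated and 29.4 and 32.0 TPM in induced shRCOR1 cells, a 1.35-fold higher mean (0.42 ± 0.17; 95% interval 0.05 to 0.80). The 8 remaining libraries held LRP6 at 20.4 to 25.8 TPM, and its change was −0.02 ± 0.17 in shRCOR2 and 0.00 ± 0.17 in shCTRL. LRP5 was at 31.5 and 33.9 TPM in untreated and 30.0 and 33.2 TPM in induced shRCOR1 cells. In shRCOR2 cells LRP5 was at 32.1 and 35.2 TPM untreated and at 26.3 and 28.5 TPM induced (−0.29 ± 0.14). The shCTRL libraries held 33.4 and 39.4 TPM untreated and 30.7 and 40.3 TPM induced. LRP6 was thus highest in the induced shRCOR1 libraries and LRP5 lowest in the induced shRCOR2 libraries.

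CTNNB1, which encodes β-catenin, was at 211 to 281 TPM and was the most abundant member per length in each group except induced shRCOR1, where DKK1 was higher. It was at 254 and 254 TPM in untreated and 281 and 254 TPM in induced shRCOR1 cells, where the lower induced library exceeded both untreated ones by under 1 TPM. In shRCOR2 cells CTNNB1 was at 268 and 249 TPM untreated and at 223 and 232 TPM induced (−0.18 ± 0.09). In shCTRL it was at 265 and 248 TPM untreated and at 222 and 211 TPM induced (−0.24 ± 0.09; 95% interval −0.45 to −0.04). Lower induced values were thus also found in the control line, and the shRCOR2 change differed from the shCTRL change by 0.06 ± 0.13 (−0.23 to 0.35). CTNNB1 shares 13498 bases with ULK4 on the opposite strand, which was at 2.07 to 5.01 TPM.

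AXIN2, a destruction complex scaffold whose RNA is widely used as a readout of β-catenin activity, was at 5.69 and 7.27 TPM in untreated and 6.59 and 8.0 TPM in induced shRCOR1 cells. Values in shRCOR2 cells were 6.12 and 7.09 TPM untreated against 6.24 and 7.05 TPM induced, and in shCTRL cells 5.81 and 7.90 against 6.33 and 8.34 TPM. Induced and untreated AXIN2 values overlapped in all 3 lines. Its changes were 0.15 ± 0.20 (95% interval −0.30 to 0.60) in shRCOR1, 0.01 ± 0.20 (−0.44 to 0.46) in shRCOR2 and 0.09 ± 0.20 (−0.36 to 0.54) in shCTRL. These intervals allow changes of up to 0.60 in shRCOR1 and 0.46 in shRCOR2, so they do not show that AXIN2 was the same. They come from the fit without the replicate number and include its shift, as AXIN2 was higher in replicate 2 in 6 of 6 groups. Within each replicate number, AXIN2 was higher in induced than in untreated shRCOR1 and shCTRL cells. In shRCOR2 it was higher in replicate 1 and lower in replicate 2.

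LEF1, a nuclear partner of β-catenin, was at 3.82 and 3.32 TPM in untreated and 1.54 and 2.85 TPM in induced shRCOR1 cells (−0.54 ± 0.24; 95% interval −1.09 to 0.00). In shRCOR2 cells it was at 4.62 and 3.63 TPM untreated and at 3.11 and 2.89 TPM induced (−0.35 ± 0.24). In shCTRL the values were 3.81 and 2.71 TPM untreated and 3.41 and 2.41 TPM induced (−0.12 ± 0.24). The induced libraries lay below the untreated ones in both knockdown lines and overlapped them in shCTRL. The shRCOR1 value leaned on replicate 1, since the difference was −0.24 without the induced replicate 1 and −0.84 without the induced replicate 2. The change in LEF1 relative to shCTRL was −0.42 ± 0.34 in shRCOR1 and −0.23 ± 0.34 in shRCOR2.

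**Figure D3:**
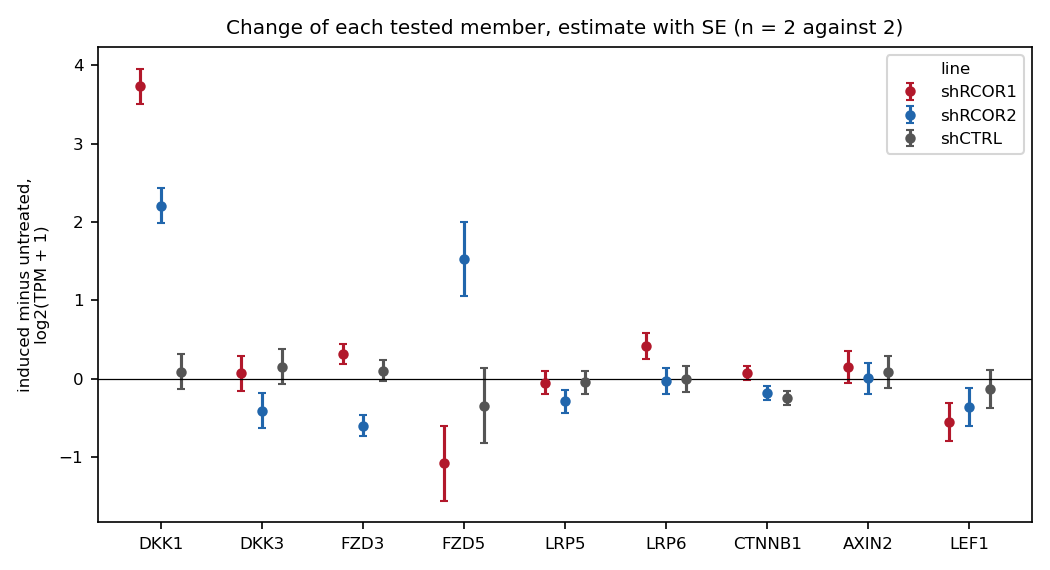
Difference between induced and untreated libraries on the log2(TPM + 1) scale for the 9 tested members in the shRCOR1, shRCOR2 and shCTRL lines; points are limma estimates and bars their SE, 2 libraries against 2. DKK1 stands at 3.73 in shRCOR1, 2.21 in shRCOR2 and 0.09 in shCTRL, and FZD5 has opposite signs in the knockdown lines (−1.08 and 1.53).

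Several members followed the replicate number inside the groups. DKK3, LRP5, LRP6 and AXIN2 were higher in replicate 2 than in replicate 1 in 6 of 6 groups, whereas LEF1, FZD5 and CTNNB1 were higher there in 1 of 6 and DKK1 in 2 of 6. For LEF1 the exception was induced shRCOR1, for FZD5 and CTNNB1 it was induced shRCOR2. The share of mitochondrial TPM was also higher in replicate 2 than in replicate 1 of each group, and its part in these values was not tested.

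Members were also counted by whether they were called at an adjusted p below 0.05 over 16842 genes. In shRCOR1, 1 of 9 tested members (DKK1) was called higher, where 4.98% of all genes were, and 0 were called lower by limma, where 3.64% were (0 members also at an unadjusted p below 0.05). In shRCOR2, DKK1 was called higher and FZD3 lower, against 7.81% and 6.47% of all genes. In shCTRL 0 members were called, with 0.0% of all genes called in either direction; at an unadjusted p below 0.05 limma gave 1 member (CTNNB1, lower) and 938 genes. With the replicate number as a block, LRP6 was called higher as well in shRCOR1, and FZD5 higher and LRP5 lower as well in shRCOR2.

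In the difference between the shRCOR1 and shCTRL changes DKK1 alone of the members was called, higher, where 0.843% of all genes were called higher and 0.439% lower. In the difference between shRCOR2 and shCTRL it was again DKK1 alone, higher, against 0.891% higher and 1.2% lower among all genes. In the difference between the knockdown lines FZD5 was called higher and DKK1 and FZD3 lower in shRCOR2, against 5.2% and 5.97% of all genes. With the block, LRP6 was called higher as well in the first of these 3 differences, FZD3 lower as well in the second and LRP6 lower as well in the third. Since abundance in these libraries chose the members, nothing is read from their counts.

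Libraries that did not overlap were common across the transcriptome. In shRCOR1, 4 of the 9 members had both induced libraries above both untreated ones (29.4% of all genes) and 2 had them below (23.7%). In shRCOR2, 2 members were above (37.6%) and 5 below (25.7%). In shCTRL, 0 were above (7.99%) and 1, CTNNB1, was below (15.6%).

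Beyond the members, a list of 120 further Wnt pathway genes was examined, of which 85 passed the filter. In shRCOR1, 6 of the 85 rose and 6 fell, where 4.98% of all genes were called higher and 3.64% lower, and the median change of the list was 0.25 against 0.04 for all genes. In shRCOR2, 3 rose and 5 fell, where 7.81% of all genes were called higher and 6.47% lower, with a median of −0.09 against 0.07. In shCTRL, limma called 0 of the 85, with a median of −0.04 against −0.02 and 4 genes, all lower, at an unadjusted p below 0.05; the count was also 0 with the block and in all other alternatives. With the replicate block the counts were 29 higher and 16 lower in shRCOR1, and 12 higher and 17 lower in shRCOR2. Of all 16842 genes the block called 2590 higher and 2030 lower in shRCOR1, and 3611 higher and 2489 lower in shRCOR2. When any 1 of a line's 4 libraries was left out, 2 to 7 genes were called in shRCOR1 and 1 to 3 in shRCOR2.

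Of the ligand genes, 7 of 19 were tested. WNT7B was at 1.26 and 1.48 TPM in untreated and 3.57 and 4.97 TPM in induced shRCOR1 cells (1.14 ± 0.17, adjusted p = 0.00555). In shRCOR2 cells WNT7B was at 1.36 and 1.54 TPM untreated and at 0.213 and 0.159 TPM induced (−1.05 ± 0.17, adjusted p = 0.00629). All 4 shCTRL libraries held 1.20 to 1.38 TPM of WNT7B. The difference between the knockdown lines, −2.19 ± 0.24 (adjusted p = 0.00227), was called in all 14 alternatives that could be run. Relative to shCTRL the changes were 1.11 ± 0.24 (adjusted p = 0.069) in shRCOR1 and −1.08 ± 0.24 (adjusted p = 0.0589) in shRCOR2; with the block both were called. The WNT7B call in shRCOR1 ended without the untreated replicate 1 and with the line's libraries alone, and that in shRCOR2 without the untreated replicate 2 or either induced replicate.

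Of the 8 other Frizzled receptors, 5 were tested. FZD7 was at 3.21 and 3.53 TPM in untreated and 8.24 and 10.4 TPM in induced shRCOR1 cells (1.23 ± 0.29, adjusted p = 0.0355), a call that ended when any 1 of these 4 libraries was left out, with no filter on low values and without mitochondrial genes. FZD6 was at 5.16 and 6.26 TPM in untreated and 11 and 13.0 TPM in induced shRCOR2 cells (0.95 ± 0.27, adjusted p = 0.0481), a call that ended in the same ways and with pseudocount 0.1. Of the 7 alternative receptors and co-receptors tested, limma called 0 in each of the 6 contrasts, with 0 to 2 at an unadjusted p below 0.05. With the block, FZD6 was called higher in both knockdown lines, FZD7 higher in shRCOR1 and FZD8 lower in shRCOR2. KREMEN1, a co-receptor through which DKK1 acts on LRP6, was also called higher in shRCOR1 with the block. ROR1 and RYK were then called lower in both knockdown lines and LRP4 lower in shRCOR2.

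Of the other secreted and membrane inhibitors, 6 of 15 were tested. FRZB, a secreted Frizzled-related inhibitor, was at 5.87 and 4.90 TPM in untreated and 9.24 and 8.70 TPM in induced shRCOR2 cells (0.65 ± 0.17, adjusted p = 0.0357). In shRCOR1 cells FRZB was at 5.32 and 4.26 TPM untreated and at 3.17 and 2.88 TPM induced (−0.52 ± 0.17, adjusted p = 0.096), and the difference between the lines was 1.17 ± 0.24 (adjusted p = 0.0172). SOSTDC1, a secreted BMP and Wnt antagonist, was at 2.47 and 1.88 TPM in untreated and 0.733 and 0.787 TPM in induced shRCOR2 cells (−0.84 ± 0.15, adjusted p = 0.00893). The SOSTDC1 value in shRCOR1 was −0.55 ± 0.15 (adjusted p = 0.0552), and with the block SOSTDC1, FRZB and APCDD1 were called lower there. LGR4, a receptor for R-spondins that strengthens Wnt signalling, was at 8.42 and 10.3 TPM in untreated and 3.98 and 4.55 TPM in induced shRCOR2 cells (−0.97 ± 0.26, adjusted p = 0.0389). The shRCOR2 calls of FRZB and LGR4 ended without any 1 of the line's 4 libraries and with no filter on low values, that of FRZB also under median-of-ratios scaling and that of LGR4 also without mitochondrial genes, and that of SOSTDC1 without the untreated replicate 1 or either induced replicate.

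At the level of Dishevelled and the destruction complex the lines differed again. FRAT2, which binds the kinase GSK3, was at 9.86 and 8.42 TPM in untreated and 4.51 and 3.78 TPM in induced shRCOR2 cells (−0.98 ± 0.17, adjusted p = 0.00761). In shRCOR1 cells FRAT2 was at 11.9 and 8.85 TPM untreated and at 16.7 and 15.7 TPM induced (0.61 ± 0.17, adjusted p = 0.0561), called higher with the block. The FRAT2 difference between the lines was −1.59 ± 0.23 (adjusted p = 0.00572), called in all 15 alternatives. CSNK1D, a casein kinase of the pathway, fell in shRCOR2 (−0.63 ± 0.12, adjusted p = 0.012), from 113 and 118 to 72.7 and 75.5 TPM. AXIN1, the constitutive relative of AXIN2, rose in shRCOR1 from 18.5 and 19.7 to 32.7 and 30.8 TPM (0.70 ± 0.10, adjusted p = 0.00562). Its shRCOR2 value was 0.11 ± 0.10 (adjusted p = 0.531). BTRC, the other destruction complex gene called in shRCOR1, fell there (−0.70, limma, adjusted p = 0.0066). The BTRC value ran from −0.77 to −0.67 over 12 alternatives, and its call ended in the same settings as that of AXIN1. The AXIN1 call ended without the untreated shRCOR1 replicate 1 and with that line's libraries alone, that of CSNK1D without any 1 of the 4 shRCOR2 libraries, and the shRCOR2 call of FRAT2 without the untreated replicate 1 or the induced replicate 2.

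All 14 nuclear factors were tested. In shRCOR1, where 3.64% of all genes were called lower, 3 fell: PYGO2, a β-catenin co-activator, and TLE1 and TLE4, Groucho-type co-repressors. The TLE1 value was −0.58 (limma, adjusted p = 0.0161) and ran from −0.66 to −0.54 over 12 alternatives. Its call ended under median-of-ratios scaling, with the line's libraries alone and without any single library of the line. PYGO2 was at 44.0 and 44.9 TPM in untreated and 24.2 and 22.9 TPM in induced shRCOR1 cells (−0.89 ± 0.09, adjusted p = 0.00159), called in all 12 alternatives. TLE4 was at 28.8 and 29.5 TPM in untreated and 17.8 and 12.7 TPM in induced shRCOR1 cells (−0.91 ± 0.17, adjusted p = 0.0151). In shRCOR2 the TLE4 value was 0.45 ± 0.17 (adjusted p = 0.118); with the block TLE4 was called higher there and PYGO2 lower. CBY1, a β-catenin antagonist, rose in shRCOR2 from 30.4 and 29.5 to 56.3 and 46.3 TPM (0.75 ± 0.12, adjusted p = 0.00585), while its shRCOR1 value was 0.00 ± 0.12 (adjusted p = 0.988). The TLE4 call in shRCOR1 ended without either untreated replicate, without the induced replicate 2 and with the line's libraries alone, and the CBY1 call in shRCOR2 without the untreated replicate 2 or the induced replicate 1.

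Of 13 tested genes often listed as Wnt targets, 1 rose and 2 fell in shRCOR1. Of all genes 4.98% were called higher there and 3.64% lower. The median change of the 13 was 0.59 against 0.04 for all genes, and 7 had an unadjusted p below 0.05 in limma. With the block CCND1, FOSL1, BAMBI, MSX2 and CD44 were called higher and TNFRSF19 and TWIST1 lower. CCND1, encoding cyclin D1, was at 104 and 124 TPM in untreated and 238 and 243 TPM in induced shRCOR1 cells (1.08 ± 0.21, adjusted p = 0.0163), a call that ended when any 1 of these libraries was left out and under median-of-ratios scaling. TWIST1 was at 130 and 119 TPM in untreated and 63.5 and 60.4 TPM in induced shRCOR1 cells (−0.99 ± 0.12, adjusted p = 0.00303). TWIST1 was also lower in induced shCTRL libraries, at 96.0 and 109 against 137 and 174 TPM (−0.59 ± 0.12, adjusted p = 0.782), and relative to shCTRL its shRCOR1 change was −0.40 ± 0.18 (adjusted p = 0.357). TNFRSF19 was at 5.46 and 4.26 TPM in untreated and 2.02 and 2.02 TPM in induced shRCOR1 cells (−0.95 ± 0.20, adjusted p = 0.0209), and its call ended without any 1 of these 4 libraries and with the line's libraries alone. In shCTRL TNFRSF19 was at 5.22 and 4.51 TPM untreated and at 3.20 and 2.59 TPM induced (−0.59 ± 0.20, adjusted p = 0.871), and relative to shCTRL its shRCOR1 change was −0.36 ± 0.28 (adjusted p = 0.68). The TWIST1 call was made in all 12 alternatives. In shRCOR2, limma called 0 of the 13 targets, with 2 (BAMBI and MSX2) at an unadjusted p below 0.05. Both were called higher with the block, and NRCAM was called lower. The median change of the targets in shRCOR2 was −0.07 against 0.07 for all genes.

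In the difference between the shRCOR1 and shCTRL changes, 2 of the 85 listed genes were called. Of all genes 0.843% were called higher and 0.439% lower in it. CSNK1E, a casein kinase that acts on Dishevelled, was higher (0.75 ± 0.14, adjusted p = 0.0442), at 331 and 333 TPM in induced against 238 and 247 TPM in untreated shRCOR1 cells and 185 and 220 against 240 and 259 TPM in shCTRL. PYGO2 was lower (−0.82 ± 0.13, adjusted p = 0.0297). Both calls ended under median-of-ratios scaling, that of CSNK1E also without mitochondrial genes, and both without any 1 of 7 of the 8 libraries, the exception being the induced shCTRL replicate 2; with the block 7 genes were higher and 2 lower. In the difference between shRCOR2 and shCTRL limma called 0 of the 85 genes, with 15 at an unadjusted p below 0.05. Of all genes 0.891% were called higher and 1.2% lower there. With the block 9 were higher and 7 lower. Of all 16842 genes the block called 1110 higher and 602 lower for shRCOR1 against shCTRL, and 1504 higher and 977 lower for shRCOR2 against shCTRL.

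The difference between the knockdown lines, which have no library in common, called 15 of the 85 genes, 8 higher in shRCOR2 and 7 lower, where 5.2% and 5.97% of all genes were. The list's median was −0.29 against 0.04 for all genes. With the replicate block, 2642 of all 16842 genes were called higher and 2483 lower. WNT7B, FRAT2, FZD7 (−1.55 ± 0.41, adjusted p = 0.0449) and CCND1 (−1.44 ± 0.29, adjusted p = 0.018) had the largest negative values. TLE4 (1.36 ± 0.24, adjusted p = 0.0111), FRZB, TWIST1 (1.13 ± 0.18, adjusted p = 0.00679) and BCL9 (0.91 ± 0.20, adjusted p = 0.0232) had the largest positive ones. Of these 8, WNT7B, FRAT2 and TWIST1 were called in every alternative that could be run, and the calls of FZD7, CCND1, TLE4, FRZB and BCL9 each ended without at least 1 library. Those of FZD7 and BCL9 also ended without mitochondrial genes, and that of FZD7 with pseudocount 0.1 or no filter; leaving out any 1 of the 8 libraries gave 4 to 9 calls, and the block gave 8 higher and 22 lower.

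**Figure D4:**
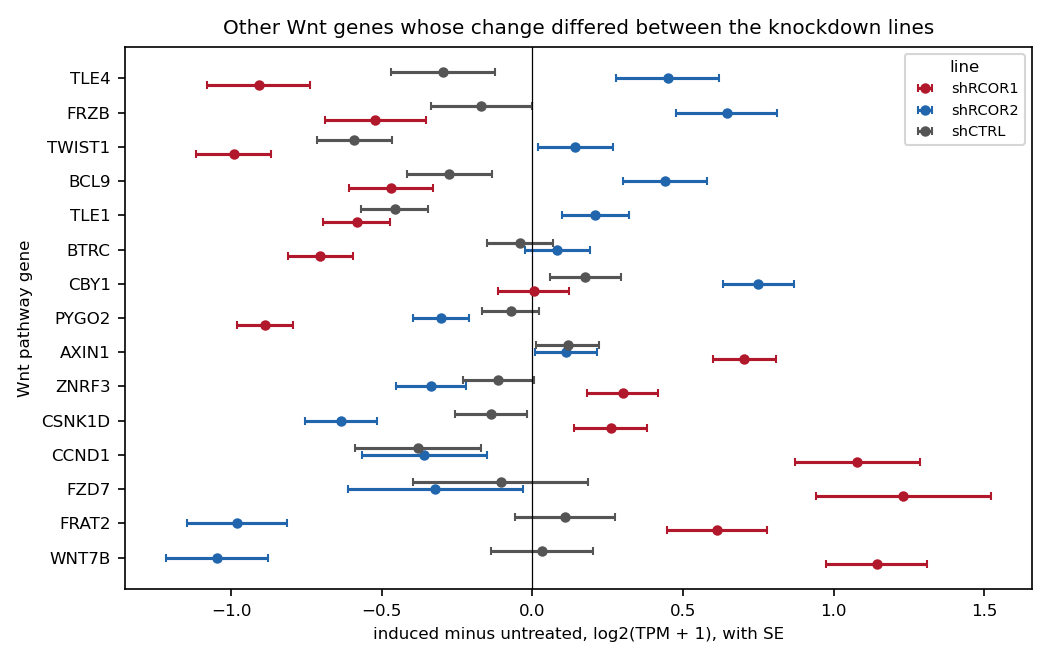
Difference between induced and untreated libraries, log2(TPM + 1) with SE, in the shRCOR1, shRCOR2 and shCTRL lines for the 15 further Wnt genes called in the difference between the knockdown lines, ordered by that difference. WNT7B stands at 1.14 in shRCOR1 and −1.05 in shRCOR2, and TLE4 at −0.91 and 0.45.

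The profile of DKK1 over the 12 libraries was compared with 12341 other tested genes that reached a group mean of 5 TPM. The 10 nearest by Pearson r on log2(TPM + 1) were DAPK3 (r = 0.978), CCNY (0.978), TRIM11 (0.974), DISP3 (0.972), DUSP6 (0.971), TNIP2 (0.967), SPRY4 (0.964), YRDC (0.962), COP1 (0.960) and VPS4A (0.960). Of these SPRY4 had the largest differences, from a mean of 5.48 to 80.0 TPM in shRCOR1, from 7.06 to 19.8 TPM in shRCOR2 and from 4.23 to 4.16 TPM in shCTRL. DUSP6 went from 7.74 to 59.6 TPM in shRCOR1 and from 8.96 to 19.6 TPM in shRCOR2. SPRY4 and DUSP6 encode feedback inhibitors of receptor tyrosine kinase and ERK signalling. VPS4A, by contrast, ran from group means of 51.7 to 62.0 TPM, so the likeness is in the shape of the profile and not in size. Among the 7 other members that reached this level LRP6 was nearest to DKK1 (r = 0.633) and LRP5 farthest (−0.578). These correlations describe 12 libraries that share groups, and DKK1 was high in 2 of the 6 groups.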

How the data were processed

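RNA of 12 Kelly libraries was extracted with a column kit and made into directional libraries, per the labels' protocols. The submitters' processing notes name Trim Galore 0.6.7, HISAT2 2.2.1 and StringTie 2.1.7 and the builds GRCh38 and hg38. Strand setting, annotation release and treatment of multiply aligned reads were not given in the sources used here. The authors deposited TPM per gene, used for all main results. FPKM, deposited in the same files, were an alternative. The deposited coverage signal, divided by FPKM, gave relative depth; no counts were at hand, so no counting intervals are given. Repeated rows of a gene identifier (at most 2 per file) were summed.

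Values of log2(TPM + 1) from 12 libraries were fitted with 6 group means and a variance trend in limma 3.58.1 (R 4.3.3), checked on simulated data. Genes entered when 2 or more libraries had a TPM of 1 or more; p-values were adjusted by Benjamini-Hochberg over 16842 genes and called below 0.05. There were 6 contrasts: induced against untreated in each line, and the 3 differences between those changes. Python 3.11.15, numpy 2.4.6, pandas 2.3.3 and matplotlib 3.10.9 were also used. Alternatives were another pseudocount, FPKM, other filters, other scalings, a replicate block, a line's own libraries and each replicate left out.

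The replicate numbers come from the labels. Deviations from group means correlated between same-numbered libraries in all 15 pairs of groups (0.37 to 0.75). On this ground the numbers were taken to pair the samples. The first principal component held 31.9% of the variance, and its relation to the replicate numbers was not examined.

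The members and gene lists were chosen with earlier results of these data known. Named genes are the members; other listed Wnt genes called in a contrast, at most 8 per contrast by size; the 10 genes most like DKK1 with a group mean of at least 5 TPM; RCOR1 and RCOR2; and protein-coding genes within 1 Mb of DKK1. Exceptions are stated. A further gene of the adrenergic marker list is not reported here.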

Additional observations from a re-analysis of the deposited data

Results flagged for a closer look

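The values below are differences between the induction changes of lines on the log2(TPM + 1) scale, each past an adjusted p of 0.05 in limma. For members the value is a description, because their abundance chose them.

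DKK1 exceeded the shCTRL change by 3.64 in shRCOR1 and by 2.12 in shRCOR2, and the shRCOR2 change less the shRCOR1 change was −1.52. The DKK1 call against shCTRL ended in shRCOR2 without any 1 of the 4 shRCOR2 libraries or of the 2 untreated shCTRL libraries, with values of 1.73 to 2.50 over 15 alternatives. Between the knockdown lines its call ended without any 1 of 7 libraries, the exception being the untreated shRCOR2 replicate 2, with values of −1.67 to −1.37. FZD3 differed between the knockdown lines by −0.91 and FZD5 by 2.60. The FZD3 call ended without any 1 of the 8 libraries. The FZD5 call ended without any 1 of 7 libraries, the exception being the induced shRCOR2 replicate 1, with no filter on low values and under median-of-ratios scaling.

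Relative to shCTRL, the shRCOR1 change of CSNK1E was 0.75 higher and that of PYGO2 differed by −0.82. Between the knockdown lines, the shRCOR2 change less the shRCOR1 change was −2.19 for WNT7B, −1.59 for FRAT2, −1.55 for FZD7, −1.44 for CCND1, −0.89 for CSNK1D, −0.64 for ZNRF3 and −0.59 for AXIN1. It was 1.36 for TLE4, 1.17 for FRZB, 1.13 for TWIST1, 0.91 for BCL9, 0.79 for TLE1, 0.79 for BTRC, 0.74 for CBY1 and 0.58 for PYGO2. No sign changed in any alternative for these genes. Of these 15 calls, 3 (WNT7B, FRAT2 and TWIST1) were made in every alternative that could be run, and the TLE4 call ended in 1 of 15, without the untreated shRCOR2 replicate 2.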

How the results depend on the processing

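No member's difference among those called changed sign in any alternative. The DKK1 difference ran from 3.64 to 3.82 in shRCOR1 and from 2.06 to 2.36 in shRCOR2 over 12 alternatives each. Relative to shCTRL its shRCOR1 change ran from 3.25 to 4.02 over 15. The FZD3 difference in shRCOR2 ran from −0.76 to −0.41 over 11. Its call ended with the line's own libraries alone and without any 1 of its 4 libraries. Abundance in these libraries chose the members, so these ranges and calls describe them and are no test. Libraries left out leave groups with 1 sample, assumed to vary like the others. The files hold no counts, so depth limits were not computed.

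With the replicate block, which pairs the samples, all genes called went from 1451 to 4620 in shRCOR1, from 2406 to 6100 in shRCOR2, from 0 to 10 in shCTRL, from 216 to 1712 for shRCOR1 against shCTRL, from 352 to 2481 for shRCOR2 against shCTRL and from 1880 to 5125 between the knockdown lines. The other Wnt genes called went from 12 to 45, from 8 to 29, from 2 to 9, from 0 to 16 and from 15 to 30 in the same order, leaving out shCTRL (0 in both). The block changed no other call of a member than those given beside the member counts. Leaving out 1 replicate gave 326 to 694, 493 to 744, 26 to 173, 19 to 321 and 693 to 1132 genes in that order, and 2 to 7, 1 to 3, 0 to 2, 0 to 1 and 4 to 9 other Wnt genes.

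A line's own libraries alone gave 585 genes and 5 other Wnt genes in shRCOR1. With no filter on low values, 6 genes were called in shCTRL, 350 for shRCOR1 against shCTRL and 5 other Wnt genes in shRCOR2. FPKM gave 13 other Wnt genes in shRCOR2. For shRCOR1 against shCTRL, median-of-ratios scaling gave 0 other Wnt genes and leaving out mitochondrial genes gave 1. For shRCOR2 against shCTRL, leaving out mitochondrial genes gave 231 genes, and 1 other Wnt gene each was called with this setting, with pseudocount 0.1, with a TPM of at least 5 and with median-of-ratios scaling. The cause was not tested.

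The split of higher and lower calls moved with scaling. It was 838 and 613 in shRCOR1 and 566 and 649 without mitochondrial genes. In shRCOR2 it was 1316 and 1090, but 2069 and 966 with FPKM and 993 and 1227 with median-of-ratios scaling. For shRCOR1 against shCTRL it was 142 and 74, but 101 and 81 without mitochondrial genes. For shRCOR2 against shCTRL it was 150 and 202, but 94 and 250 with median-of-ratios scaling. Between the knockdown lines it was 875 and 1005, but 1344 and 901 with FPKM. Of the other Wnt genes, median-of-ratios scaling called 2 higher and 10 lower in shRCOR2 and 4 higher and 10 lower between the knockdown lines. Without mitochondrial genes 3 were higher and 6 lower in shRCOR1, and 7 higher and 4 lower between the knockdown lines.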
